A study of Homo sapiens with 12 samples.

Results

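The 40 genes described here encode the machinery of the G2 phase and of mitosis: 3 cyclins, 8 kinases, 2 CDC25 phosphatases, 3 genes of ubiquitin transfer and securin, 9 kinesins, 5 centromere and kinetochore genes, 2 chromosomal passenger genes, 3 spindle and midzone genes, 2 cytokinesis genes, 2 chromosome genes and the transcription factor FOXM1. They were chosen by what they encode, with no threshold on a measured value, although earlier results of these data were known, and are 40 of the 27745 genes in the count table and of the 60675 genes in the immunoprecipitation tables. All 40 were matched by Ensembl identifier, and all 40 were among the 15026 genes with enough reads to be tested. The cells were MDA-MB231, an established breast cancer cell line. RNA was sequenced after stable lentiviral expression of a control hairpin (sh_control), a hairpin against TDP43 (sh_TDP43) or a hairpin against SRSF3 (sh_SRSF3), with 2 libraries in each group. TDP43, encoded by TARDBP, and the serine- and arginine-rich protein SRSF3 are RNA-binding proteins that act in splicing. In cells overexpressing Flag-TDP43 or Flag-SRSF3, RNA was also recovered with Flag antibodies (RNA immunoprecipitation, RIP), with 1 RIP library and 1 input library for each protein. The labels name 1 hairpin for each target. Whether the libraries of a group were grown as separate cultures is not stated, and every p-value below therefore rests on differences among libraries that may be technical.

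Entry into mitosis is driven by cyclin A and cyclin B bound to CDK1, which CDC25 phosphatases switch on, together with the Polo-like and Aurora kinases. Kinesins and kinetochore proteins then move and attach the chromosomes, and the anaphase-promoting complex, with CDC20 and the ubiquitin-conjugating enzyme UBE2C, destroys cyclin B and securin so that the sister chromatids can part. The genes of this machinery are transcribed late in the cell cycle through 2 promoter elements, the CCAAT box, which the factor NF-Y binds, and the cell cycle genes homology region (CHR), which the MuvB complex binds with B-MYB (MYBL2) and FOXM1.

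The promoters of 5 of the genes are shown because 4 carry both CCAAT and TTTGAA in this stretch. CCNB1 carries CCAAT but neither TTTGAA nor TTCGAA, the only forms of the CHR that were searched for. A CHR spelled otherwise would have been missed. The 5 genes also changed by different amounts after knockdown. Each stretch is the 130 bases before the transcription start in RefSeq (GRCh38.p14), 5′ to 3′ on the gene's strand, with CCAAT and TTTGAA on either strand in capitals. MKI67 was added after its values were seen.
PLK1: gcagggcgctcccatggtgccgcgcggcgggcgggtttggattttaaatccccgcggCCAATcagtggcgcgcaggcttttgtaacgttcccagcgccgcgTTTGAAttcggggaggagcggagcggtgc
CCNB2: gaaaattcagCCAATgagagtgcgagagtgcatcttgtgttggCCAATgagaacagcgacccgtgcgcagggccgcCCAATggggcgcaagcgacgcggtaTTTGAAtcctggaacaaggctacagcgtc
CDC20: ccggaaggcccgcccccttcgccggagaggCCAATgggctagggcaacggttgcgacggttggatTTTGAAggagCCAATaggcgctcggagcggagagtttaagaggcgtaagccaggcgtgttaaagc
CCNB1: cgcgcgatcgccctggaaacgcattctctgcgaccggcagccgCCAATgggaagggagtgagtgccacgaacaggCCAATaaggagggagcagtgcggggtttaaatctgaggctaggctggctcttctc
MKI67: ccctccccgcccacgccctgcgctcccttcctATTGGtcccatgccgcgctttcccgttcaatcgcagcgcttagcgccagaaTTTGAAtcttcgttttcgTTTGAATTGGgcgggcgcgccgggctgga
The stretches lie at chr16:23678759-23678888 on the plus strand (PLK1), chr15:59105016-59105145 on the plus strand (CCNB2), chr1:43358851-43358980 on the plus strand (CDC20), chr5:69167020-69167149 on the plus strand (CCNB1) and chr10:128126424-128126553 on the minus strand (MKI67). In PLK1 and CCNB2 the CHR begins 29 bases before the start. CCNB2 has CCAAT boxes at 120, 87 and 54 bases before the start, 33 bases apart, and CCNB1 has them at 87 and 55 bases, 32 bases apart. In MKI67 the CHR nearest the start, at 29 bases, overlaps a CCAAT box on the opposite strand.

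The CHR and the CCAAT box were found in most of the genes that have a promoter entry. A window from 250 bases before to 50 bases after the start was listed for 34 of the 40 genes and for 11499 of all genes tested. TTTGAA or TTCGAA, on either strand, was in the window of 26 of the 34 genes (76.5%) and of 15.9% of all genes tested. CCAAT was in 28 of the 34 (82.4%) against 42.8%, and both elements were in 22 of the 34 (64.7%) against 8.44%. A match of these letters is a description of the sequence and not a measured binding site. AURKA, TTK, TPX2, BIRC5, UBE2C and FOXM1 had no entry.

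The libraries held 34457445 to 38326930 counted reads. TARDBP was at 168 and 125 CPM (counts scaled to the library total, with TMM factors) in sh_control and at 34.4 and 31.3 in sh_TDP43, and SRSF3 was at 459 and 404 in sh_control and at 64.0 and 61.8 in sh_SRSF3. Each hairpin group also had less of the other target, SRSF3 at 187 and 180 in sh_TDP43 and TARDBP at 108 and 101 in sh_SRSF3. Of the 5 markers chosen as high in this mesenchymal-like line, VIM, CD44, AXL and FOSL1 were at 238 to 2398 CPM and SPARC at 0.36 to 1.84. Of the 8 chosen as low or absent, PGR was at or near 0 and ESR1 at 0.161 to 1.86 CPM, GATA3, EPCAM and CDH1 did not exceed 15.7, and ERBB2, KRT8 and KRT18 were expressed. Some of these markers moved with the knockdowns: AXL fell from 1731 and 1499 CPM to 460 and 401 in sh_TDP43, FOSL1 fell by 1.24 in sh_TDP43 and 0.95 in sh_SRSF3 on the log2 scale, CD44 fell by 1.04 in sh_SRSF3, and CDH1 rose from 1.02 and 1.51 CPM to 2.42 and 2.81 in sh_TDP43 and to 15.1 and 15.7 in sh_SRSF3. Their part in the results below was not tested. The 6 markers of embryonic kidney packaging cells summed to 0 to 0.28 CPM in each library, the 4 haematopoietic markers to 0.28 to 4.15, and the 6 fibroblast markers to 22.3 to 42.9, highest in sh_SRSF3. In bulk RNA, fewer cells in mitosis and less RNA of these genes per cell cannot be told apart.

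The 2 libraries of each knockdown differed in a common direction across the 40 genes. In sh_TDP43, library 2 was below library 1 for 39 of the 40 genes, with a median log2 difference of -0.25, against 50.2% of all genes tested. In sh_SRSF3 it was below for 37 of the 40, with a median of -0.20, against 49.5% of all genes. In sh_control it was below for 19 of the 40, with a median of 0.02. The summed level of the 40 genes was 8392 and 8650 CPM with the control hairpin, 7184 and 6097 in sh_TDP43 and 7707 and 6774 in sh_SRSF3. The sums of both knockdowns therefore lay below both controls, and library 2 of each knockdown lay lowest in its group. Results are given without these libraries where that changed a call.

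**Figure D1:**
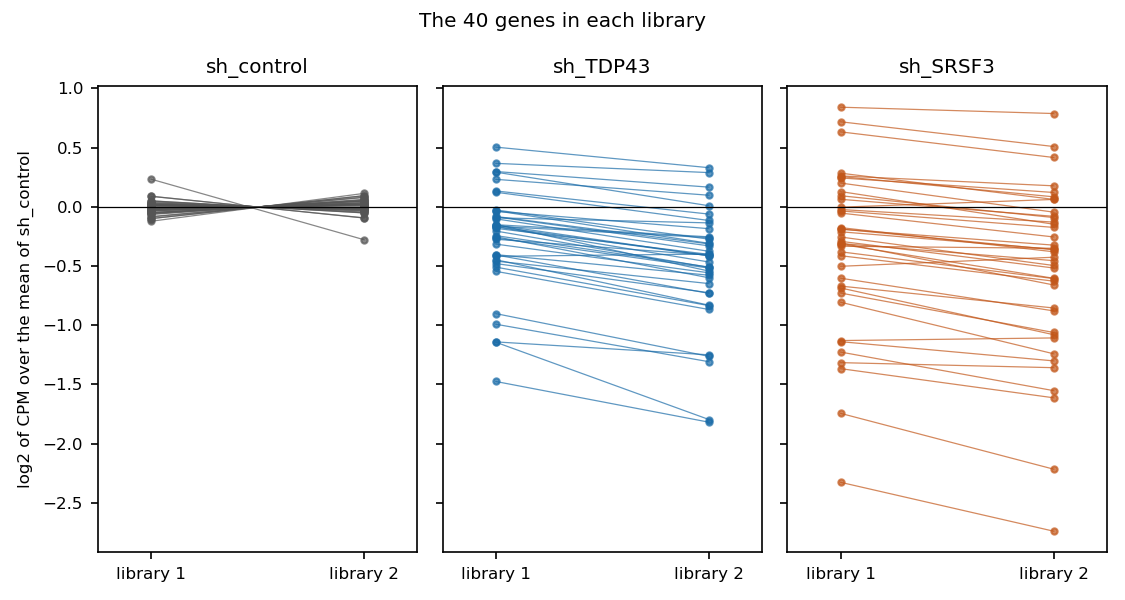
Each line is 1 of the 40 genes, drawn from library 1 to library 2 of sh_control, sh_TDP43 and sh_SRSF3; the vertical axis is log2 of its CPM over the mean of the control libraries. Library 2 is below library 1 for 39 of 40 genes in sh_TDP43 and for 37 of 40 in sh_SRSF3, and for 19 of 40 in sh_control.

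Per kilobase of exon (RPKM, which divides by exon length and library size), the control levels of the 40 genes ran from 7.04 in CDC25C, the phosphatase that activates CDK1 at mitotic entry, to 171 in UBE2C. TPX2, which activates Aurora A on the spindle, was at 164, CCNB1 at 131, TOP2A, the topoisomerase that untangles chromosomes, at 129 and CDC20 at 123. The genes were thus all expressed, over a range of more than 20-fold. Of the 40, 11 share between 59 and 1006 exon bases with another gene of the table (CCNA2, PLK1, BUB1B, CDC25C, KIF4A, KIF18A, KIF20A, CENPA, BIRC5, ANLN and FOXM1), mostly on the opposite strand, and without strand information reads there cannot be told apart. Values of PTTG1 and KIF4A, which have near-identical copies elsewhere in the genome, are uncertain for the same kind of reason.

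After TDP43 knockdown, 23 of the 40 genes fell, 2 rose and 15 were not called at an adjusted p of 0.05. PLK1, SPC25, CDC25B, ANLN and CCNB2 fell at least 2-fold, and the 2 that rose were AURKA and KIF23. The share that fell, 57.5%, stands beside 24.1% of all genes tested that fell, and the 2 that rose beside 20.7% that rose. The genes tested include some with few counts, unlike the 40. Shares among genes of matched level were not computed, here or below. The median log2 change of the 40 genes was -0.32, against -0.0035 for all genes tested. Both sh_TDP43 libraries lay below both control libraries for 30 of the 40 genes, against 37.0% of all genes. Without library 2 of sh_TDP43, the median of the 40 genes was -0.17. Fewer of them, and fewer of all genes, were then called lower. The median of all genes stayed between -0.01 and 0.01 whichever library was left out.

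After SRSF3 knockdown, 24 of the 40 genes fell, 3 rose and 13 were not called. CCNA2, KIF20A, BUB1, PLK1, SPC25, KIF20B, CDC25B and CCNB1 fell at least 2-fold, and ECT2, AURKB and MKI67 rose. The share that fell, 60%, stands beside 34.4% of all genes tested that fell, and the 3 that rose beside 32.5% that rose. The median log2 change of the 40 genes was -0.36, against -0.03 for all genes. Both sh_SRSF3 libraries lay below both controls for 27 of the 40 genes, against 42.6% of all genes. Without library 2 of sh_SRSF3, fewer of the 40 genes, and fewer of all genes, were called lower. With each library left out in turn, the median of the 40 genes ran from -0.40 to -0.29, against -0.06 to -0.02 for all genes. Both knockdowns are compared with the same 2 control libraries, so their changes are given side by side below and the difference between them was tested directly.

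**Figure D2:**
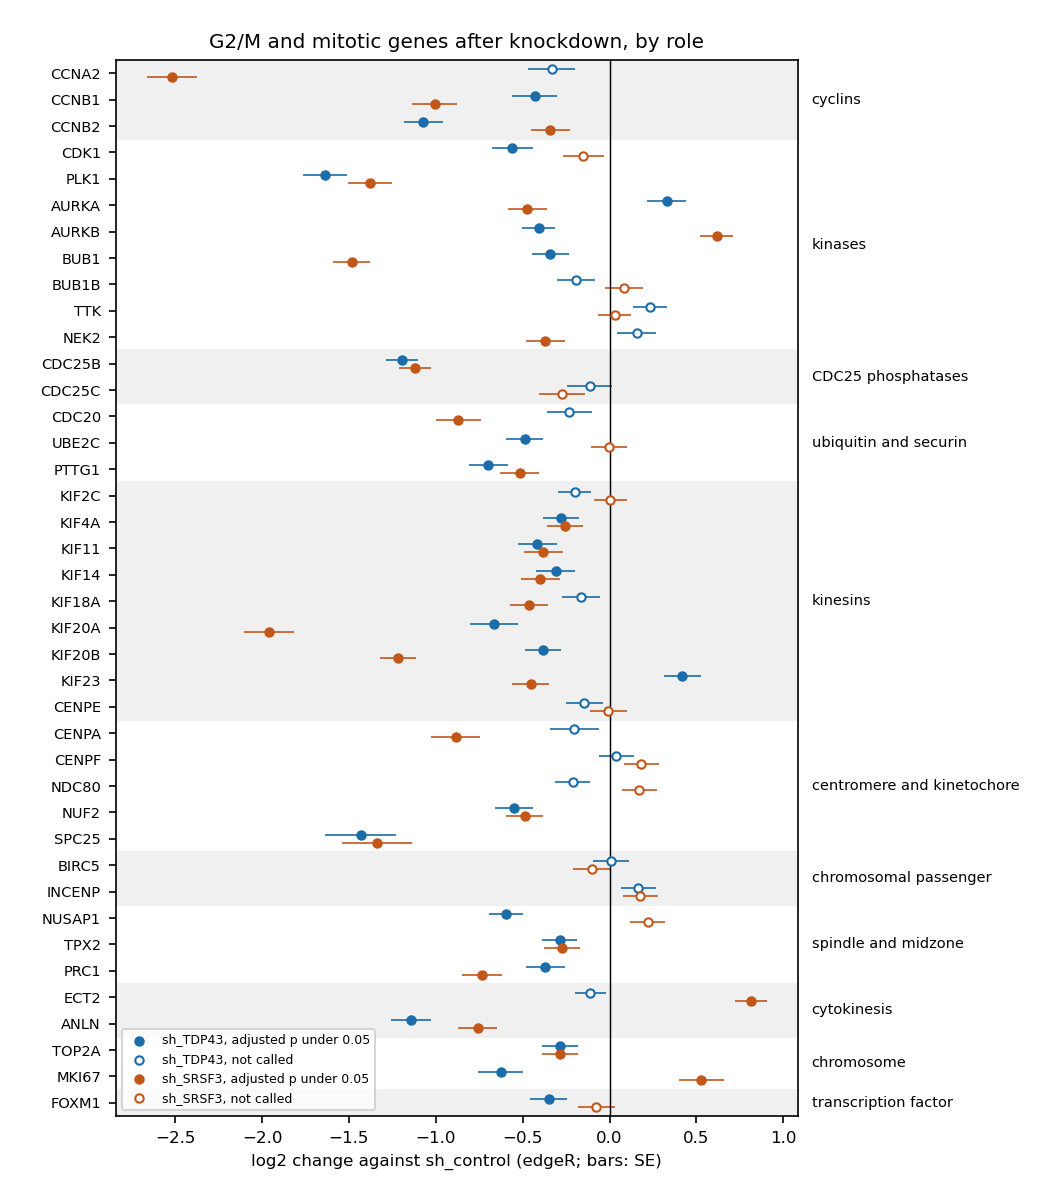
Log2 change of each of the 40 genes, grouped by role, in sh_TDP43 (blue) and sh_SRSF3 (orange) against sh_control, with bars for the standard error and filled points for an adjusted p under 0.05. PLK1, CDC25B and SPC25 lie more than 1 below 0 in both, CCNA2 and KIF20A lie lowest in sh_SRSF3, and AURKA, AURKB, KIF23 and MKI67 lie on opposite sides of 0.

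In the direct contrast of sh_SRSF3 with sh_TDP43, 12 of the 40 genes were lower in sh_SRSF3, 11 were higher and 17 were not called. Of all genes tested, 33.5% were lower and 32.0% higher. The median difference of the 40 genes was 0.03 on the log2 scale, against -0.04 for all genes. CCNA2, KIF20A and BUB1 were at least 2-fold lower in sh_SRSF3 than in sh_TDP43, and MKI67 and AURKB at least 2-fold higher. The difference in the median changed sign under other settings, which the closing section gives. With scaling to the upper quartile, which also lowered the median of all genes, 17 genes were lower and 5 higher.

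Among the cyclins, CCNA2 fell in sh_SRSF3 and CCNB2 fell most in sh_TDP43. CCNA2 (ENSG00000145386; GRCh37 chromosome 4, 122737599 to 122745088) encodes cyclin A2, which acts in S phase and at mitotic entry. Its level was 181 and 187 CPM with the control hairpin, 166 and 126 in sh_TDP43 and 36.7 and 27.5 in sh_SRSF3. The sh_SRSF3 libraries were far below all others, and the sh_TDP43 libraries lay below the controls. CCNA2 fell by 2.52 on the log2 scale in sh_SRSF3 (SE 0.15, adjusted p = 4.57e-09), and its log2 difference in sh_TDP43 was -0.33 (SE 0.14, adjusted p = 0.0602). The latter was called without library 1 of sh_TDP43 (adjusted p = 0.0146) and without either library of sh_SRSF3 (0.0365 and 0.0439), whereas without library 2 of sh_TDP43 the log2 difference was -0.14 (adjusted p = 0.51). With the replicate number as a block its adjusted p was 0.0048. Between the knockdowns CCNA2 differed by -2.19 (SE 0.14, adjusted p = 1.83e-08).

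CCNB2 (ENSG00000157456; chromosome 15, 59397277 to 59417244), a B-type cyclin, was at 83.9 and 85.9 CPM with the control hairpin, 45.4 and 35.4 in sh_TDP43 and 67.4 and 66.6 in sh_SRSF3. The groups did not overlap, and sh_TDP43 was lowest. It fell by 1.07 in sh_TDP43 (SE 0.11, adjusted p = 5.75e-06) and, in sh_SRSF3, by 0.34 (SE 0.11, adjusted p = 0.015), where the call was lost without library 1 (adjusted p = 0.0574) or library 2 (0.0627) of sh_SRSF3. The direct difference was 0.73 (SE 0.11, adjusted p = 6.34e-05). CCNB1, which encodes cyclin B1, the main partner of CDK1, showed the reverse order: it fell by 0.43 in sh_TDP43 (adjusted p = 0.0139) and, in sh_SRSF3, by 1.01 (adjusted p = 9.55e-06), with a direct difference of -0.58 (adjusted p = 0.00129). The sh_TDP43 call of CCNB1 was lost without library 2 of that group (adjusted p = 0.162).

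Of the 8 kinases, 4 fell and 1 rose in each knockdown. PLK1 (ENSG00000166851; chromosome 16, 23688977 to 23701688), the Polo-like kinase of centrosomes, kinetochores and cytokinesis, was at 153 and 149 CPM with the control hairpin, 54.2 and 42.8 in sh_TDP43 and 64.4 and 51.4 in sh_SRSF3. All 4 knockdown libraries were below 45% of either control. It fell by 1.64 in sh_TDP43 (SE 0.13, adjusted p = 3.2e-07) and, in sh_SRSF3, by 1.38 (SE 0.13, adjusted p = 3.47e-07). The direct difference was 0.26 (SE 0.13, adjusted p = 0.0891), and it was called without library 2 of sh_SRSF3 (adjusted p = 0.0321) or library 1 of sh_TDP43 (0.0194).

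BUB1 (ENSG00000169679; chromosome 2, 111395275 to 111435691), a kinase of the spindle checkpoint, was at 225 and 253 CPM with the control hairpin, 198 and 180 in sh_TDP43 and 92.8 and 78.3 in sh_SRSF3. The sh_SRSF3 libraries stood well below the rest. BUB1 fell by 1.48 in sh_SRSF3 (SE 0.11, adjusted p = 3.89e-08) and by 0.34 in sh_TDP43 (SE 0.11, adjusted p = 0.0177), where the call was lost without control library 2 (adjusted p = 0.0904) or sh_TDP43 library 2 (0.159) and with upper-quartile scaling (0.0728). The direct difference was -1.14 (SE 0.11, adjusted p = 4.83e-07). Its paralogue BUB1B, also a checkpoint protein, was not called in either knockdown, with log2 differences of -0.19 and 0.08.

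The 2 Aurora kinases moved in opposite directions in each knockdown. AURKA (ENSG00000087586; chromosome 20, 54944445 to 54967393), the kinase of centrosomes and spindle poles, was at 275 and 262 CPM with the control hairpin, 346 and 328 in sh_TDP43 and 217 and 170 in sh_SRSF3. It rose by 0.33 in sh_TDP43 (SE 0.11, adjusted p = 0.0271) and fell by 0.47 in sh_SRSF3 (SE 0.11, adjusted p = 0.00185), a direct difference of -0.80 (SE 0.11, adjusted p = 2.24e-05). The rise was not called without control library 2 (adjusted p = 0.0955) or without either sh_TDP43 library (0.143 and 0.064). AURKB (ENSG00000178999; chromosome 17, 8108051 to 8113918), the kinase of the chromosomal passenger complex, was at 123 and 115 CPM with the control hairpin, 89.2 and 90.4 in sh_TDP43 and 196 and 169 in sh_SRSF3. It fell by 0.41 in sh_TDP43 (SE 0.10, adjusted p = 0.00364) and rose by 0.62 in sh_SRSF3 (SE 0.10, adjusted p = 6.22e-05), a direct difference of 1.03 (SE 0.10, adjusted p = 5.47e-07). For both genes the 3 groups did not overlap.

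Among the other kinases, CDK1, the kinase that cyclins A and B activate, fell by 0.56 in sh_TDP43 (adjusted p = 0.00148) and had a log2 difference of -0.15 in sh_SRSF3 (adjusted p = 0.265). NEK2, a centrosome kinase, fell by 0.37 in sh_SRSF3 (adjusted p = 0.00972; 0.119 without library 2 of that group) and was not called in sh_TDP43. TTK, the checkpoint kinase also called MPS1, was not called in either, with 0.23 and 0.03.

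CDC25B (ENSG00000101224; chromosome 20, 3767419 to 3786768), the phosphatase that starts CDK1 activation, fell in both knockdowns. It was at 214 and 233 CPM with the control hairpin, 101 and 93.9 in sh_TDP43 and 102 and 104 in sh_SRSF3. All 4 knockdown libraries were less than 50% of either control. The changes were -1.19 (SE 0.09, adjusted p = 3.13e-07) and -1.12 (SE 0.09, adjusted p = 1.29e-07), with a direct difference of 0.08 (SE 0.09, adjusted p = 0.484). CDC25C, at 16.5 to 22.9 CPM over all libraries, was not called, with -0.11 and -0.28.

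Of the genes that act at the metaphase to anaphase transition, PTTG1 fell in both knockdowns, and CDC20 and UBE2C in 1 each. CDC20 (ENSG00000117399; chromosome 1, 43824626 to 43828874), the activator of the anaphase-promoting complex, was at 266 and 234 CPM with the control hairpin, 233 and 193 in sh_TDP43 and 156 and 118 in sh_SRSF3. It fell by 0.87 in sh_SRSF3 (SE 0.13, adjusted p = 4.26e-05), with -0.23 in sh_TDP43 (adjusted p = 0.162) and a direct difference of -0.64 (adjusted p = 6.59e-04). PTTG1 (ENSG00000164611; chromosome 5, 159848829 to 159855751), which encodes securin, was at 187 and 183 CPM with the control hairpin, 127 and 101 in sh_TDP43 and 139 and 120 in sh_SRSF3. It fell by 0.70 in sh_TDP43 (SE 0.11, adjusted p = 2.17e-04) and, in sh_SRSF3, by 0.52 (SE 0.11, adjusted p = 0.00105). UBE2C fell by 0.49 in sh_TDP43 (adjusted p = 0.00204) and had a log2 difference of -0.0032 in sh_SRSF3 (adjusted p = 0.98). The direct difference of 0.49 was called (adjusted p = 0.00114), but not with upper-quartile scaling (0.0639).

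Of the 9 kinesins, 5 fell and KIF23 rose in sh_TDP43, and 7 fell in sh_SRSF3. KIF20A (ENSG00000112984; chromosome 5, 137514408 to 137523404), the midzone kinesin MKLP2, which carries the passenger complex to the central spindle, was at 171 and 185 CPM with the control hairpin, 125 and 99.8 in sh_TDP43 and 53.1 and 38.3 in sh_SRSF3. The groups were ordered without overlap, sh_SRSF3 lowest. It fell by 0.66 in sh_TDP43 (SE 0.14, adjusted p = 0.00151) and, in sh_SRSF3, by 1.96 (SE 0.14, adjusted p = 4.34e-08), a direct difference of -1.30 (SE 0.14, adjusted p = 2.23e-06). KIF20B, another member of the kinesin-6 family, fell by 0.39 (adjusted p = 0.00758; 0.13 without library 2 of sh_TDP43) and by 1.22 (adjusted p = 1.9e-07).

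KIF23 (ENSG00000137807; chromosome 15, 69706585 to 69740766), the kinesin MKLP1 of the centralspindlin complex, was at 160 and 158 CPM with the control hairpin, 225 and 200 in sh_TDP43 and 128 and 105 in sh_SRSF3. It was highest in sh_TDP43 and lowest in sh_SRSF3, with no overlap. It rose by 0.42 in sh_TDP43 (SE 0.11, adjusted p = 0.00562; 0.0735 without library 1 of that group) and fell by 0.45 in sh_SRSF3 (SE 0.11, adjusted p = 0.0019), a direct difference of -0.87 (SE 0.11, adjusted p = 6.83e-06). KIF11, the Eg5 motor that separates the spindle poles, fell by 0.42 and 0.38, KIF14 by 0.31 and 0.40, and the chromokinesin KIF4A by 0.28 and 0.26. Each of these 6 calls was lost when library 2 of its knockdown was left out, with adjusted p between 0.0787 and 0.393, and those of KIF4A and, in sh_TDP43, KIF14 also without control library 2 (0.0987 to 0.148). KIF18A fell by 0.46 in sh_SRSF3 (adjusted p = 0.00169). KIF2C and CENPE were not called in either knockdown.

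Of the centromere and kinetochore genes, SPC25 and NUF2, which both belong to the NDC80 complex that holds microtubules, fell in both knockdowns. SPC25 (ENSG00000152253; chromosome 2, 169690642 to 169769881) was at 34.8 and 24.4 CPM with the control hairpin, 13.4 and 8.53 in sh_TDP43 and 11.9 and 11.6 in sh_SRSF3. The controls differed between themselves, and all 4 knockdown libraries were below both. It fell by 1.43 (SE 0.20, adjusted p = 6.45e-05) and by 1.34 (SE 0.20, adjusted p = 4.33e-05). NUF2 fell by 0.55 (adjusted p = 8.75e-04) and 0.49 (adjusted p = 0.00105). NDC80, the subunit that gives the complex its name, was not called against sh_control (-0.21 and 0.17) but was 0.38 higher in sh_SRSF3 than in sh_TDP43 (adjusted p = 0.00402), which was not called without library 1 of sh_SRSF3 (0.0555) or library 2 of sh_TDP43 (0.0566), or with upper-quartile scaling (0.247). CENPA, the histone H3 variant of centromeres, fell by 0.89 in sh_SRSF3 (adjusted p = 7.81e-05), with -0.20 in sh_TDP43 and a direct difference of -0.68 (adjusted p = 7.66e-04). CENPF was not called in either.

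The 2 passenger genes other than AURKB were not called in either knockdown. BIRC5, which encodes survivin, was at 51.1 to 62.7 CPM over the 6 libraries, and INCENP, the scaffold of the complex, at 130 to 160.

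Of the 3 spindle and midzone genes, all fell in sh_TDP43 and 2 fell in sh_SRSF3. NUSAP1 (ENSG00000137804; chromosome 15, 41624892 to 41673248), which bundles spindle microtubules, was at 181 and 178 CPM with the control hairpin, 129 and 109 in sh_TDP43 and 215 and 203 in sh_SRSF3. It fell by 0.60 in sh_TDP43 (SE 0.10, adjusted p = 2.6e-04), had a log2 difference of 0.22 in sh_SRSF3 (SE 0.10, adjusted p = 0.0635) and differed directly by 0.82 (SE 0.10, adjusted p = 6.16e-06). PRC1 (ENSG00000198901; chromosome 15, 91509268 to 91538859), which crosslinks antiparallel microtubules of the midzone, was at 247 and 238 CPM with the control hairpin, 205 and 171 in sh_TDP43 and 160 and 132 in sh_SRSF3. It fell by 0.37 in sh_TDP43 (adjusted p = 0.0161; 0.204 without library 2 of that group and 0.0586 with upper-quartile scaling) and, in sh_SRSF3, by 0.73 (SE 0.11, adjusted p = 5.42e-05). TPX2 fell by 0.29 and 0.27, and the calls were lost without library 2 of the knockdown (adjusted p = 0.307 and 0.235) or without control library 1 (0.0907 and 0.0847).

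The 2 cytokinesis genes went opposite ways in sh_SRSF3. ANLN (ENSG00000011426; chromosome 7, 36429415 to 36493400), which encodes the cleavage furrow scaffold anillin, was at 553 and 597 CPM with the control hairpin, 289 and 232 in sh_TDP43 and 361 and 318 in sh_SRSF3. It fell by 1.14 in sh_TDP43 (SE 0.11, adjusted p = 3.32e-06) and, in sh_SRSF3, by 0.76 (SE 0.11, adjusted p = 4.02e-05). ECT2 (ENSG00000114346; chromosome 3, 172468472 to 172539264), the exchange factor that activates RhoA at the furrow, was at 270 and 276 CPM with the control hairpin, 266 and 240 in sh_TDP43 and 488 and 471 in sh_SRSF3. The sh_SRSF3 libraries stood above all others. It rose by 0.81 in sh_SRSF3 (SE 0.09, adjusted p = 2.73e-06), had -0.11 in sh_TDP43 (adjusted p = 0.35) and differed directly by 0.92 (SE 0.09, adjusted p = 8.64e-07).

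MKI67 (ENSG00000148773; chromosome 10, 129894923 to 129924649), which encodes the proliferation marker Ki-67 that coats mitotic chromosomes, was at 747 and 879 CPM with the control hairpin, 596 and 457 in sh_TDP43 and 1260 and 1084 in sh_SRSF3. The 3 groups did not overlap. It fell by 0.63 in sh_TDP43 (SE 0.13, adjusted p = 0.00143) and rose by 0.53 in sh_SRSF3 (SE 0.13, adjusted p = 0.00247), a direct difference of 1.15 (SE 0.13, adjusted p = 3.05e-06). TOP2A fell by 0.29 and 0.28, calls that were lost without library 2 of the knockdown (adjusted p = 0.342 and 0.196) or without control library 2 (0.0959 and 0.0781). FOXM1 (ENSG00000111206; chromosome 12, 2966847 to 2986321), the transcription factor of this programme, was at 190 and 190 CPM with the control hairpin, 165 and 133 in sh_TDP43 and 187 and 174 in sh_SRSF3. It fell by 0.35 in sh_TDP43 (SE 0.11, adjusted p = 0.0153; 0.225 without library 2 of that group and 0.0586 with upper-quartile scaling) and had a log2 difference of -0.08 in sh_SRSF3 (adjusted p = 0.545).

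**Figure D3:**
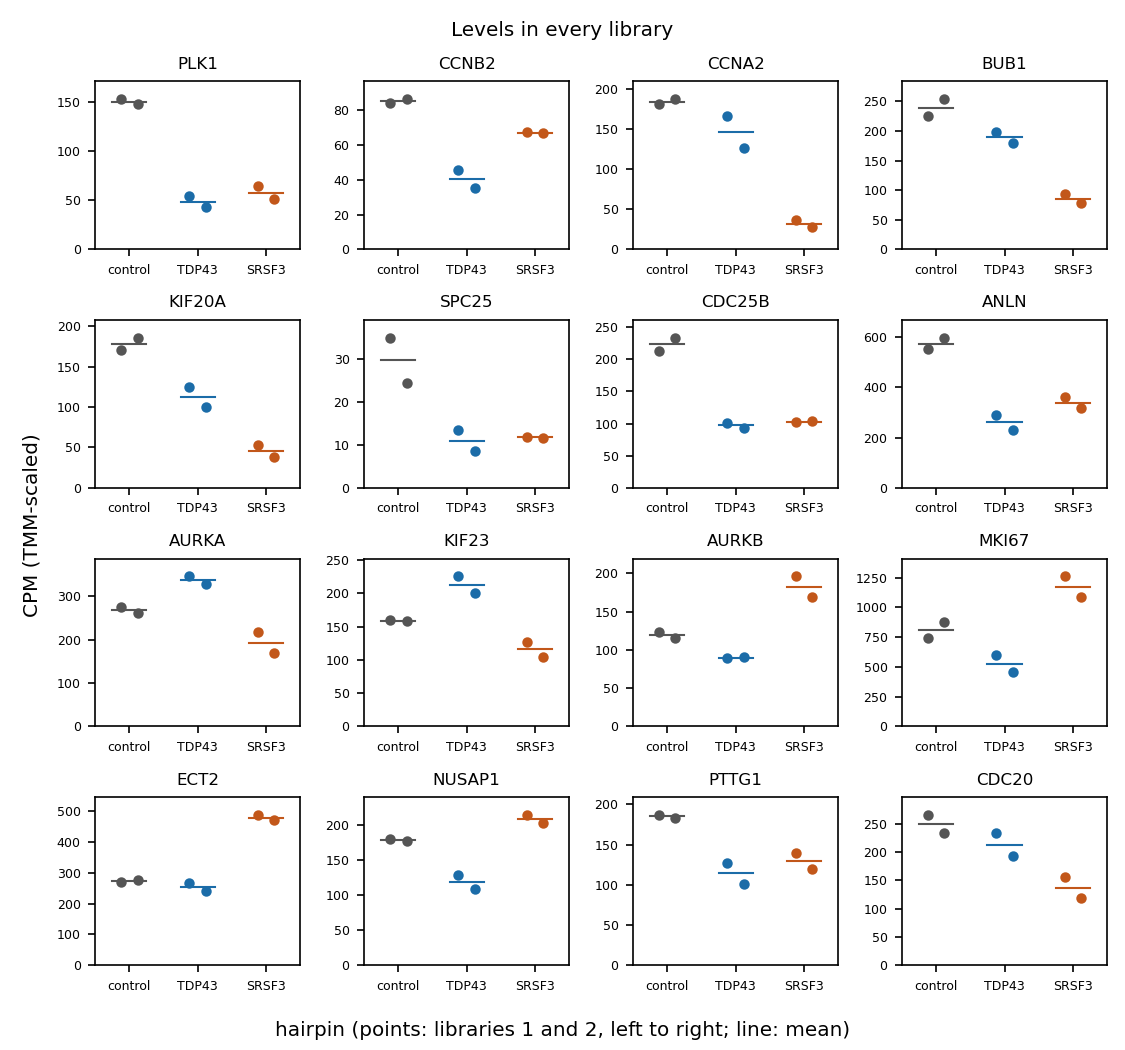
TMM-scaled CPM of 16 of the genes in every library, with points for libraries 1 and 2 of each hairpin and a line for their mean; each vertical axis starts at 0. PLK1, CDC25B, SPC25 and ANLN are low in both knockdowns, CCNA2, BUB1 and KIF20A are lowest in sh_SRSF3, AURKA and KIF23 are highest in sh_TDP43, and AURKB, MKI67 and ECT2 are highest in sh_SRSF3.

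The calls were also counted by whether the window holds TTTGAA or TTCGAA, with no test of the difference. Among the 26 genes with either sequence, 16 fell and 1 rose in sh_TDP43, and 17 fell and 2 rose in sh_SRSF3. Among the 8 with neither, 4 fell and 0 rose in sh_TDP43, and 5 fell and 1 rose in sh_SRSF3. Among all genes tested, 24.1% fell and 20.7% rose in sh_TDP43, and 34.4% fell and 32.5% rose in sh_SRSF3. Shares for other tested genes with and without these sequences were not computed, so the split has no background of its own. The median log2 changes were -0.33 with and -0.37 without these sequences in sh_TDP43, and -0.39 and -0.44 in sh_SRSF3. A CHR spelled otherwise was not searched for, so the 8 genes cannot be taken to lack the element. PLK1 and MKI67, shown above with TTTGAA at 29 bases before the start in both, changed by -1.38 and 0.53 in sh_SRSF3.

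Other genes of mitosis fell in a larger share than all genes in sh_TDP43, whereas in sh_SRSF3 their calls were near the background in both directions; no list was tested as a whole. Of 113 such genes, all tested, 53 fell (46.9%) and 6 rose in sh_TDP43 (median log2 change -0.25), whereas 38 fell (33.6%) and 40 rose in sh_SRSF3 (median 0.07). Of all genes tested, 24.1% fell and 20.7% rose in sh_TDP43, and 34.4% fell and 32.5% rose in sh_SRSF3. In the direct contrast 56 were higher and 27 lower in sh_SRSF3 (median 0.26), beside 32.0% and 33.5% of all genes. In sh_TDP43, 5 of 8 condensin genes, 10 of 18 passenger and centromere genes and 10 of 17 outer kinetochore genes fell, each list beside the 24.1% of all genes, with SPDL1, which brings dynein to kinetochores, at -1.46 and CENPK at -1.39. In sh_SRSF3, 13 of 19 spindle and motor genes and 5 of 7 further cytokinesis genes fell, beside the 34.4% of all genes, with DLGAP5 at -1.38 and PSRC1 at -1.66. Of 12 cohesin and separase genes 8 rose, beside 32.5% of all genes, among them the cohesin subunits STAG2 (1.51) and STAG1 (1.08). SPC24, the partner of SPC25 in the NDC80 complex, fell by 1.32 in sh_TDP43 and by 1.89 in sh_SRSF3. HMMR, a spindle assembly factor, rose in both, by 1.30 and 1.20. CDC25A, the third CDC25 phosphatase, rose by 0.81 and 1.78, opposite to CDC25B.

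Among 18 regulators of the programme, the largest change in sh_TDP43 was that of MYBL2. MYBL2, which encodes the B-MYB subunit that joins MuvB at CHR promoters, was at 143 and 115 CPM with the control hairpin, 16.2 and 10.8 in sh_TDP43 and 225 and 224 in sh_SRSF3. Its log2 change was -3.26 in sh_TDP43 (SE 0.16, adjusted p = 8.89e-09) and rose by 0.80 in sh_SRSF3 (SE 0.14, adjusted p = 1.93e-04), a direct difference of 4.06 (SE 0.17, adjusted p = 4.08e-10). Of the 18 regulators, 9 fell, 2 rose and 7 were not called in sh_TDP43, beside 24.1% of all genes that fell and 20.7% that rose. In sh_SRSF3, 6 fell, a share near the 34.4% of all genes, and 10 rose, beside 32.5%. The MuvB subunits LIN9 and LIN54 changed by -0.86 and -0.59 in sh_TDP43 and by 0.43 and 1.19 in sh_SRSF3. The other MuvB subunits listed did not all follow them. LIN37, at 1.32 to 4.81 CPM, changed by 1.29 in sh_TDP43 and 1.74 in sh_SRSF3, and RBBP4 by -0.76 and -0.91. LIN52 was not called in sh_TDP43 (-0.29) and changed by 0.46 in sh_SRSF3. NFYA, a subunit of NF-Y, rose by 0.75 and 2.10, whereas NFYB changed by -1.18 and NFYC by 0.27 in sh_SRSF3 and NFYC by -1.42 in sh_TDP43. E2F4, the E2F of the repressive form of the MuvB complex, fell by 1.48 and 0.78.

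Of 7 genes of CDK inhibitors, 5 were tested, and in each knockdown 3 fell and 1 rose, beside 24.1% of all genes that fell and 20.7% that rose in sh_TDP43 and 34.4% and 32.5% in sh_SRSF3. CDKN1B, which encodes p27, was at 52.1 and 53.8 CPM with the control hairpin, 124 and 117 in sh_TDP43 and 134 and 138 in sh_SRSF3, a rise of 1.18 and 1.36. CDKN1A, which encodes p21, fell by 0.66 and 1.07, CDKN1C by 1.97 and 3.43 and CDKN2D by 1.37 and 1.58. CDKN2A and CDKN2B had 0 counts in all 6 libraries, which allows up to 3 counts, or 0.0783 to 0.0901 CPM, in each.

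The RIPs measured which of these RNAs were recovered with each tagged protein. There is 1 RIP and 1 input library for each, so no value here has a replicate check or a test. Recovery is the log2 ratio of RIP to input, with 0.1 added to both, for genes with a mean of at least 1, and it was computed from the deposited FPKM and, beside it, from a second deposited table of normalized values. All 40 genes were measured in both tables. The labels name no RIP from cells without the tag, so recovery without the tagged protein is not known.

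In the Flag-TDP43 RIP, 8 of the 40 genes were at least 2-fold higher than in input and 1 lower in the FPKM table, beside 20.4% and 18.2% of all genes measured. The median of the 40 genes was 0.09, against 0.04 for all genes. In the table of normalized values 5 were higher and 5 lower, beside 14.2% and 18.2% of all genes. In both tables, 5 genes were at least 2-fold higher and 1 lower, beside 12.9% and 13.7% of all genes. The shares that were higher, in each table and in both, are near those of all genes. The shares that were lower are smaller than those of all genes. They are 1 of 40 in the FPKM table and in both tables, and 5 of 40 in the table of normalized values. None of this was tested. BIRC5 was highest in the FPKM table, at 151 FPKM in the RIP and 7.09 in input, a log2 ratio of 4.39 (3.08 in the other table, where CDC25B was highest). Its FPKM was 32.7 in the other input library, and its normalized values in the 2 inputs were 28.2 and 26.3. CDC25B was at 93.1 FPKM in the RIP and 11.6 in input, a log2 ratio of 2.99 (3.46). The other genes past 2-fold in both tables were the kinases AURKB (1.78 and 1.61) and AURKA (1.62 and 1.46) and the kinesin KIF23 (1.65 and 1.16). CCNB1, at 124 FPKM in the RIP and 33.9 in input, had 1.87 in the FPKM table and 0.88 in the other. CDK1 was lowest, at 8.90 FPKM in the RIP and 27.7 in input, with -1.63 (-1.58), followed by NUSAP1 at -0.96 (-1.29) and CCNB2 at -0.85 (-1.07). The signs of the 2 tables were opposite for 8 of the 40 genes.

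In the Flag-SRSF3 RIP, 7 of the 40 genes were at least 2-fold higher than in input and 1 lower in the FPKM table, beside 20.1% and 10.1% of all genes measured. The median of the 40 genes was 0.34, against 0.21 for all genes. In the table of normalized values 7 were higher and 2 lower, beside 11.9% and 9.71% of all genes. In both tables, 4 genes were at least 2-fold higher and 1 lower, beside 10.2% and 6.27% of all genes. The shares that were higher in the FPKM table and in both tables are again near those of all genes. In the table of normalized values, 7 of 40 higher is a larger share than that of all genes. The shares that were lower, 1 of 40 or 2 of 40, are smaller than those of all genes. These differences rest on few genes and were not tested. PLK1, at 30.7 FPKM in the RIP and 10.1 in input, had log2 ratios of 1.60 and 1.45. CDC20, at 103 FPKM in the RIP and 42.8 in input, had 1.26 and 1.02. MKI67 had 1.22 and 1.75, and KIF20A 1.08 and 1.26. NEK2, at 7.79 FPKM in the RIP and 23.8 in input, was lowest, with -1.60 and -1.28, and SPC25 had -0.85 and -1.05. ECT2 and FOXM1 depended on the table. ECT2 had 2.98 in the FPKM table, where its input stood at 1.71 FPKM against 13.1 in the other input library, and -0.08 in the table of normalized values. FOXM1, at 1.57 FPKM in the RIP and 3.20 in input, had -0.98 and 1.40. The signs were opposite for 13 of the 40 genes.

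Set beside the knockdowns, the RNAs at least 2-fold higher in both tables of a RIP did not share a direction. Of those recovered with Flag-TDP43, CDC25B and AURKB fell in sh_TDP43, AURKA and KIF23 rose, and BIRC5 was not called. Of those recovered with Flag-SRSF3, PLK1, CDC20 and KIF20A fell in sh_SRSF3 and MKI67 rose. CDK1, at least 2-fold lower with Flag-TDP43 in both tables, fell in sh_TDP43. NEK2, at least 2-fold lower with Flag-SRSF3 in both tables, fell in sh_SRSF3. Of all 40 genes, 57.5% fell in sh_TDP43 and 60% in sh_SRSF3.

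**Figure D4:**
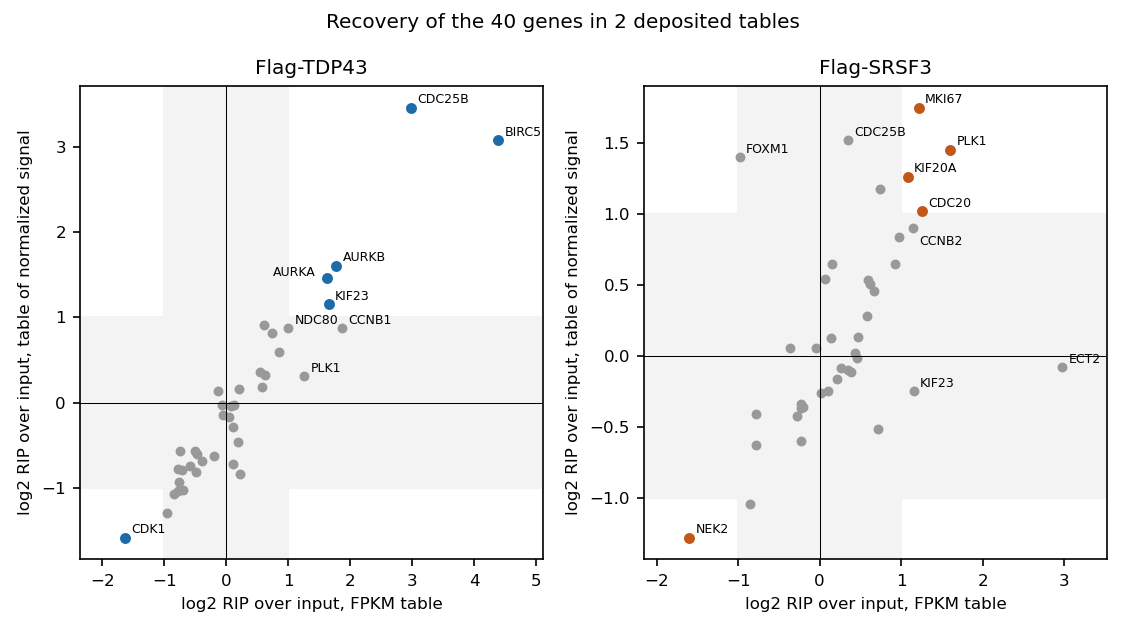
Log2 RIP over input of the 40 genes in the FPKM table (horizontal) and in the table of normalized signal (vertical), for Flag-TDP43 and Flag-SRSF3; the grey bands hold values within 2-fold, and coloured points are past 2-fold in the same direction in both tables. BIRC5 and CDC25B stand highest with Flag-TDP43, and ECT2 lies near 0 in the vertical direction with Flag-SRSF3 although it is highest in the horizontal one.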

How the data were processed

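The 40 genes, the gene lists and the rule for named genes were chosen with earlier results of these data known. The deposited knockdown values are raw read counts per gene, counted by featureCounts v1.4.6-p5 over exons without a strand option, per the file headers, on GRCh37. The submitters' processing notes also name STAR 2.5.2a, HISAT2 2.0.5, StringTie 1.3.0 and Cufflinks, with no role. The authors' RIP table holds FPKM per gene. A second deposited table holds a normalized signal whose unit the sources do not give. Depth inferred from the smallest step was 27.6 to 28.4 M reads for the FPKM and 23.1 to 25.5 for the signal.

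Groups came from sample titles. Of the count columns, 2 match no label and were not used, so the combined knockdown was not analysed here and the fit held 6 libraries with 3 residual degrees of freedom. Within each group the 2 libraries differed beyond sampling noise (chi-square per gene 11.7 to 24.0). Counts were fitted with edgeR 4.0.16 in R 4.3.3 (TMM, filterByExpr, quasi-likelihood F-test, two-sided, Benjamini-Hochberg adjustment over 15026 genes, threshold 0.05), which was tested on simulated counts. RIP ratios used a pseudocount of 0.1 and a mean of at least 1. Values in every library are given for the called gene with the largest change in each role and comparison. They are also given for genes called in opposite directions and for those at least 2-fold apart between knockdowns. In each RIP, the 3 highest and 3 lowest in the FPKM table are given by log2 ratio, some with their FPKM. Alternatives were DESeq2 1.42.0, upper-quartile scaling, other filters and thresholds, the replicate number as a block, each library left out and, for the RIPs, another pseudocount, filter, fold, centring and table.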

Additional observations from a re-analysis of the deposited data

How the results depend on the processing

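Of the calls, 13 of 25 in sh_TDP43, 20 of 27 in sh_SRSF3 and 15 of 23 in the direct contrast passed under every alternative run. These alternatives include the stricter threshold applied to the main fit. At an adjusted p of 0.01, 15 genes fell and 1 rose in sh_TDP43. Of all 15026 genes tested, 2043 rose at that threshold, and the number that fell is not given here. Upper-quartile scaling moved the median of all genes to 0.09, -0.19 and -0.29 in the 3 comparisons; it gave 16 lower and 4 higher in sh_TDP43, 27 and 3 in sh_SRSF3, and 17 and 5 in the direct contrast, whose median became -0.22 (-0.0040 with a CPM of at least 1). DESeq2 gave 22 lower and 2 higher, 23 and 4, and 12 and 11. Leaving out each library in turn gave 13 to 24 lower and 0 to 2 higher in sh_TDP43 (0 without sh_TDP43 library 1), 17 to 24 lower in sh_SRSF3, and 6 to 13 higher in the direct contrast (6 without sh_SRSF3 library 1 or sh_TDP43 library 2), with a direct median of -0.11 to 0.15; the cause was not tested.

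The labels link same-numbered libraries by the number alone. Over all genes tested the correlations of their deviations were 0.08 to 0.12. Of the 40 genes, library 2 was below library 1 for 39 in sh_TDP43, 37 in sh_SRSF3 and 19 in sh_control. Whether same-numbered libraries share a batch was not tested. With the replicate number as a block, 27 genes were lower and 3 higher in sh_TDP43, 24 and 5 in sh_SRSF3 and 13 and 13 in the direct contrast. The counts of all genes in this fit are not given here, so these counts have no background.

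Among single genes in the knockdowns, only uncalled values changed sign. In sh_SRSF3 with upper-quartile scaling BUB1B was -0.0717, TTK -0.12 and KIF2C -0.15; with DESeq2 UBE2C was 0.0163 and CENPE 0.012; KIF2C was -0.0057 with a CPM of at least 1 and -0.0088 with only the 2 groups fitted. With each library left out, sh_SRSF3 values ran from -0.0421 to 0.19 for BUB1B, -0.0187 to 0.0771 for TTK, -0.0876 to 0.0784 for KIF2C, -0.14 to 0.11 for UBE2C and -0.10 to 0.0903 for CENPE, and sh_TDP43 values from -0.0664 to 0.14 for CENPF and -0.12 to 0.13 for BIRC5.

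In the RIPs, the other table gave 5 genes at least 2-fold higher and 5 lower with Flag-TDP43 (median -0.16) and 2 lower with Flag-SRSF3, where KIF23 became -0.25 and ECT2 -0.0802. Centred on the median of all genes, 4 were higher and 3 lower with Flag-SRSF3. At 1.5-fold, 10 were lower with Flag-TDP43, and 14 higher and 5 lower with Flag-SRSF3. The shares of all genes at 1.5-fold or after centring were not computed, so these counts have no background. With 1 library each, depth sets no error for these ratios.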
